A study of Bos indicus with 12 samples.

Results

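GNAS is an imprinted locus, a stretch of the genome at which the maternal and the paternal chromosome carry different DNA methylation and express different transcripts. Its main product is Gs alpha, the stimulatory G protein subunit that couples hormone receptors, among them the beta-adrenergic receptors of muscle, to adenylyl cyclase and cyclic AMP. Other transcripts start from alternative first exons upstream: NESP55, whose start region is methylated on the paternal allele in mammals studied so far, and XL alpha-s, the antisense transcript and the A/B transcript, whose start regions are methylated on the maternal allele. The promoter of Gs alpha itself stays unmethylated on both alleles. In DNA from bulk tissue a cytosine methylated on only 1 parental allele reads at an intermediate level, midway between an unmethylated and a fully methylated one.

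The locus was taken as the CpG cytosines covered in every animal in a 400 kb region of bovine chromosome 13 around GNAS (build ARS-UCD1.2), of which the first lay at 57327114 and the last at 57697788. It held 431 cytosines, 246 on the plus strand and 185 on the minus strand, of 635469 in the whole series. The region was chosen by the measured methylation difference between the study's groups, since cytosines and windows called for that difference lie in it, so every difference between groups within it is given as a description, without a test of its own.

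The samples were Longissimus thoracis muscle of 12 Nelore steers (Bos indicus), 6 animals with a high estimated breeding value for shear force (Tough) and 6 with a low one (Tender), frozen at slaughter, with no treatment. The steers were raised alike in feedlots, and the study gives an average age at slaughter for the whole herd only. The animals came from the extremes of a larger herd, and the day of ageing at which shear force was measured differs between the labels and the study's text. Methylation was read by reduced representation bisulfite sequencing (RRBS), in which DNA is cut by MspI at CCGG, treated with bisulfite and sequenced, so that only cytosines near such sites are seen. The tissue was whole muscle, which can hold fat, vessel and blood cells besides muscle fibres, and its identity could not be checked against marker genes with these data.

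The percent methylation of a cytosine in an animal was 100 times its methylated reads over all its reads, both as scaled and rounded by the authors. Coverage in the locus before that scaling had a median of 24 reads per cytosine and animal, with a range of 10 to 229. For a cytosine at 50% the counting error (1 binomial SE) was 15.8% at 10 reads and 10.2% at 24 reads. Cytosines of the same strand less than 50 bp apart can be read by the same 50-base reads and are then not independent measurements. A chain of such neighbours no more than 50 bp apart is called a read block here. The ends of a block longer than a read are read by different reads. The 431 cytosines fell into 108 such blocks.

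The methylation of the locus was weighted towards intermediate values. Of its cytosines, 121 (28.1%) had a mean over the 12 animals of 35 to 65%, against 7.79% of all cytosines in the series. Cytosines under 5% numbered 160 (37.1% against 52.4%), and those over 90% numbered 44 (10.2% against 13.6%). The mean over the locus was 35.1%, with animal means from 32.4% in Tender 10 to 37.4% in Tender 8. Over all cytosines the mean was 29.7%.

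Unmethylated cytosines lay in compact runs. The longest run of covered cytosines with means under 10% spanned 57482966 to 57484737 (1772 bp). Its 73 cytosines had a mean of 1.21%, and the highest single mean in it was 9.48%. Shorter runs of at least 10 cytosines lay at 57357314 to 57357829 (24 cytosines, mean 1.91%), 57381213 to 57381664 (21 cytosines, mean 1.66%) and 57682437 to 57683201 (17 cytosines, mean 1.92%). The median SD over animals of a cytosine was 1.44% in the longest run and 2.23 to 2.76% in the others. Smaller unmethylated groups were not counted as runs, such as the block of 9 cytosines at 57401487 to 57401528 (mean 0.164%). At the other end of the scale, the block at 57365983 to 57366026 held 7 cytosines with a mean of 97.3%, and the block at 57697614 to 57697655 held 4 with a mean of 96.4%.

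Stretches of intermediate methylation were located by a fixed rule. Cytosines with a mean of 35 to 65% were chained when no more than 300 bp apart, and a chain was kept when it held at least 5 of them and they made up at least 70% of the covered cytosines between its ends. This gave 8 stretches, numbered 1 to 8 by position, with 93 cytosines in 15 read blocks. They held 86 of the 121 intermediate cytosines. Over all autosomes the same rule gave 954 stretches. Of 6015 windows of 400 kb with a covered cytosine, 598 held at least 1 stretch and 4 held 8 or more, the highest number being 10.

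The stretches lay in 3 clusters. Stretches 1 and 2 began just after the longest unmethylated run, stretches 3 to 6 lay between 57516726 and 57520980, and stretches 7 and 8 lay between 57531390 and 57532127. When chains were joined over up to 1000 bp, 4 longer domains took their place. The first ran from 57484985 to 57486518 (52 cytosines, 45.9% ± 6.28, SD over 12 animals). The second ran from 57516726 to 57518418 (32 cytosines, 43.5% ± 4.46), and all 32 of its covered cytosines were intermediate. The third, 57520254 to 57520980, had 9 cytosines at 41.5% ± 10.9. The fourth, 57529993 to 57532611, had 40 cytosines at 50.6% ± 7.51.

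Stretch 1 was the largest, with 37 cytosines on both strands over 517 bp (57485605 to 57486121). Of the 954 stretches of the genome 3 held 37 cytosines or more, stretch 1 included. Its mean was 43.6% ± 7.01 (SD, n = 12), and each animal's value lay between 33.1% in Tough 3 and 53.2% in Tough 4. In the Tough animals the values were 41.3, 34.4, 33.1, 53.2, 42.0 and 44.6%. In the Tender animals they were 49.1, 52.4, 48.9, 33.8, 46.8 and 43.8%. The groups overlapped over nearly their whole range, and the Tender mean exceeded the Tough mean by 4.39 percentage points, less than 1 SD of either group.

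The other stretches had the following levels over the 12 animals. Stretch 2 (57486479 to 57486518, 6 cytosines) was the most methylated, at 62.1% ± 13.7, from 45.6 to 87.4%. Stretch 3 (57516726 to 57516796, 9 cytosines) had 39.3% ± 8.81, from 24.8 to 59.7%. Stretch 4 (57517331 to 57517366, 6 cytosines) had 43.7% ± 11.6, from 27.6 to 56.9%. All of these ranges overlap one another. They were taken over the same 12 animals, so their overlap does not give the order of the levels within an animal. Stretch 2 was above stretch 3 in every animal but Tender 8.

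Stretch 5 (57518355 to 57518418, 13 cytosines) had 45.2% ± 7.26, from 32.3 to 58.1%. Stretch 6 (57520948 to 57520980, 5 cytosines) had 40.2% ± 13.3, from 20.3 to 65.2%. Stretch 7 (57531390 to 57531538, 10 cytosines) had 45.4% ± 7.97, from 34.0 to 58.9%. The widest spread was that of stretch 8 (57532097 to 57532127, 7 cytosines), with 57.4% ± 18.9 and a range of 30.6 to 83.0%. Tough 1, Tough 3 and Tender 8 were above 80% there, while Tough 2, Tender 10 and Tender 11 were below 35%, so both groups held high and low animals.

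**Figure D1:**
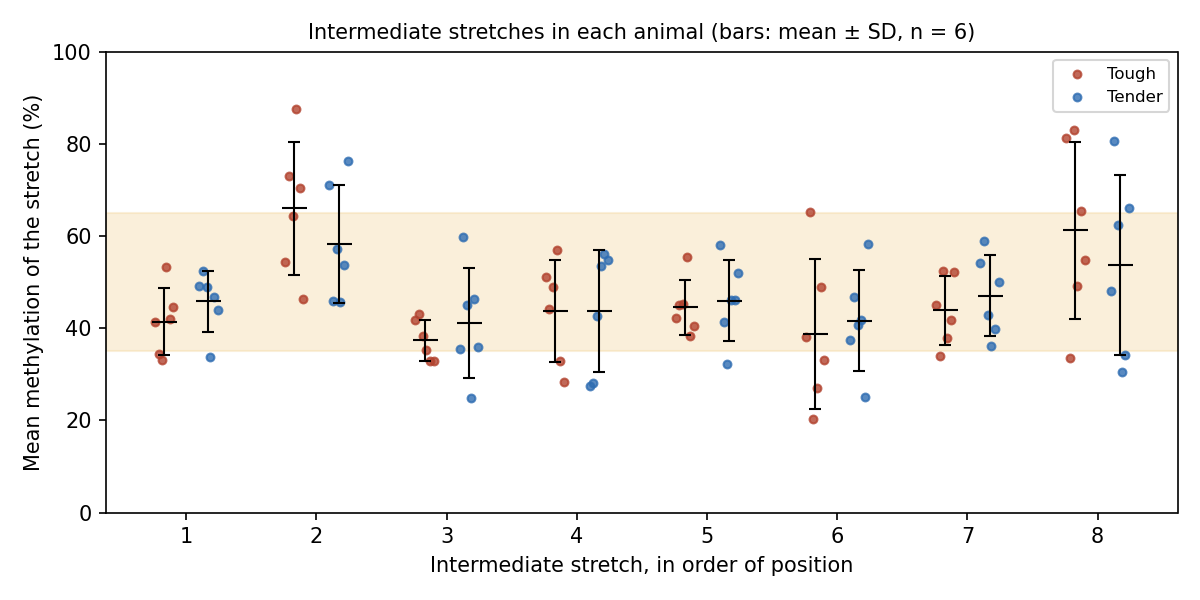
Mean methylation (%) of each intermediate stretch in every animal, Tough in red and Tender in blue, with bars at the mean ± SD of 6 animals and the band of 35 to 65% shaded. The groups overlap in all 8 stretches, and stretch 8 has the widest spread, from 30.6 to 83.0%.

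Tough and Tender differed little over whole stretches. The difference of the group means (Tender minus Tough) was 4.39, -7.71, 3.85, 0.0684, 1.48, 2.88, 3.11 and -7.57 percentage points for stretches 1 to 8, and each was smaller than the SD over animals of its stretch. Within the animals split by bisulfite conversion rate, as measured by the study's spike-in controls, the signs were not constant. In stretch 8 the difference was -19.4 points in the 7 animals of lower conversion (3 Tough, 4 Tender) and 6.15 in the 5 of higher conversion (3 Tough, 2 Tender). In stretch 6 it was 16.1 and -13.2.

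The borders of the stretches differed. On the lower side of stretch 1, 40 of the 52 covered cytosines within 2000 bp had means under 10%, and the mean over all 52 was 8.94%. On the higher side of stretch 2 all 12 covered cytosines within 2000 bp had means of 67.1% or more, with a mean of 80.2%. The first cluster thus lay between a mostly unmethylated and a largely methylated side. The covered cytosine nearest to the lower end of stretch 1, 57485596 at a distance of 9 bp, had 71.6% ± 12.9. The unmethylated cytosines thus did not adjoin the stretch. Around stretches 3 to 5 the covered cytosines on the higher side were intermediate as well, 23 of 23 for stretch 3. However, 19 of these 23 belong to other stretches, which the rule chose for intermediate levels. The same holds for 13 of 17 at stretch 4 and for 0 of 4 at stretch 5. The only covered cytosine within 2000 bp on the lower side of stretch 3 had a mean under 35%. Stretch 6 ended in a drop from 42.6% ± 16.7 at 57520980 to 19.1% ± 5.95 at 57520997, which is 17 bp further. Coverage changed at the same place (35 and 62 reads in Tough 1), so not all reads were shared between these cytosines.

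Between the clusters the covered cytosines were few. A block of 3 at 57498243 to 57498283 had 15.3% ± 6.54. Inside the fourth domain the levels changed from block to block. The 6 plus-strand cytosines at 57530037 to 57530087 had 69.0% ± 10.6, the 4 at 57530179 to 57530196 had 38.6% ± 14.02, and the 4 minus-strand cytosines at 57530697 to 57530747 had 24.6% ± 19.0. Its last block, at 57532585 to 57532611, had 57.6% ± 11.2.

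DMC23, named by its number in the study, is the cytosine at 57484992 on the minus strand. The study placed it in a CpG island within an intron and a promoter region of GNAS. It lies on the border between the longest unmethylated run and stretch 1. The last plus-strand cytosines before it, from 57484813 to 57484851, had means of 20.2, 1.83, 15.3 and 13.02%. The 6 minus-strand cytosines of its own read block, 57484974 to 57485012, had means of 27.4 to 38.2%. The next covered cytosine, 57485591 on the minus strand, lay 599 bp away and had 69.0% ± 19.0. Methylation thus rose over the interval in which DMC23 lies.

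At DMC23 the Tough animals had 23.1, 21.4, 7.14, 14.3, 10 and 33.3% methylation (18.2% ± 9.68, SD, n = 6). The Tender animals had 31.2, 53.3, 50, 40, 75 and 48% (49.6% ± 14.8, n = 6). Tough 6 was above Tender 7, and otherwise all Tender animals were above all Tough animals. Coverage was 12 to 25 reads per animal, so that single values were loose. The exact 95% binomial interval, computed from the reads before the authors' scaling and covering counting error only, was 0.195 to 36.0% for Tough 3 (1 of 13 reads methylated) and 50.9 to 91.3% for Tender 11 (15 of 20 reads).

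DMC23 was 1 of 2 cytosines of the locus called between the groups. A call needed an adjusted p under 0.05 and a difference over 25 percentage points between the pooled percentages of the groups (all methylated reads over all reads), by logistic regression with an overdispersion factor, a chi-square test and Benjamini-Hochberg adjustment over all 635469 cytosines. Over the whole series 0.019% of the cytosines were called, 0.0132% with the higher level in Tender and 0.00582% with the higher level in Tough. In the locus both called cytosines were higher in Tender. Since these calls chose the locus, nothing is read from their number. For DMC23 the pooled difference was 31.8 points and the adjusted p 0.0250. The call was lost, at adjusted p of 0.0507 to 0.07, when Tough 2, Tough 3, Tough 4, Tough 5, Tender 8, Tender 11 or Tender 12 was left out, and also with the F-test of the same model (adjusted p = 0.487) and with the reads before the authors' scaling (0.0532). With conversion (lower or higher) as a covariate in the chi-square model the call was kept, at an adjusted p of 0.00102. The covariate enters the p only, so the pooled difference of the criterion could not change. The difference of means was 27.5 points in the animals of lower conversion and 42.6 in those of higher conversion.

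The other cytosines of the read block stood beside it. Their pooled differences were 30.8 points at 57484974, 21.6 at 57484985, 17.8 at 57484994, 10.6 at 57485008 and 20.3 at 57485012. None of these 5 was called. The block spans less than a read, and coverage was nearly equal along it, so these cytosines share most of their reads with DMC23. Averaged over the 6 cytosines, the Tough animals had 24.9, 16.9, 9.98, 14.3, 33.6 and 25.9%, and the Tender animals 29.6, 48.9, 45.1, 37.3, 61.0 and 37.8%. Over the block, Tough 5 lay above Tender 7, and these were the only animals in which the groups overlapped. The 100 bp window 57484901 to 57485000 (DMR20 in the study) held 4 of these cytosines, with 21.1% ± 7.12 in Tough and 45.8% ± 13.4 in Tender, a pooled difference of 25.6 points and an adjusted p of 0.0168. With the F-test the adjusted p was 0.471 and the window was not called. With conversion as a covariate in the chi-square model it was called, at an adjusted p of 0.000186 and the same unadjusted pooled difference. Without Tough 2, Tough 3, Tough 4 or Tender 11 the difference was 20.9 to 24.5 points and the window was not called. It was 1 of 2 windows called among 122 of the locus, both higher in Tender, with 0.0217% of all windows called in the series, 0.0186% higher in Tender and 0.0031% higher in Tough. The cytosine opposite DMC23 on the plus strand was not covered, so the difference could not be looked up on the other strand.

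**Figure D2:**
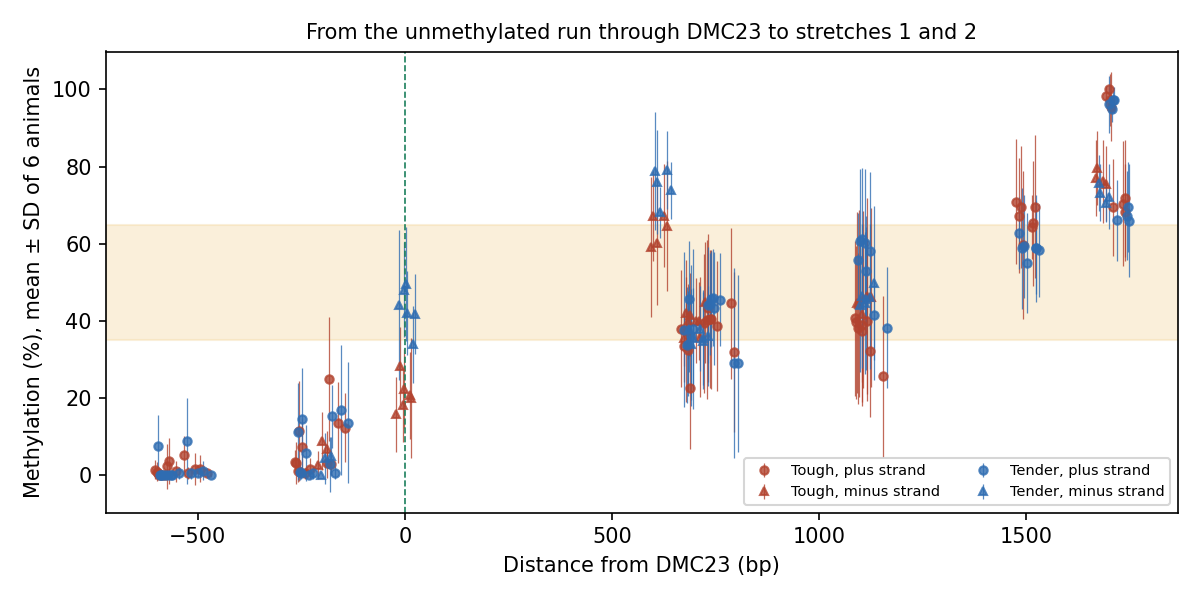
Methylation (%, mean ± SD of 6 animals) of Tough (red) and Tender (blue) against distance from DMC23 in bp, with circles for the plus strand and triangles for the minus strand. Levels are near 0% on the left, the 6 cytosines at DMC23 are higher in Tender, and levels of both groups are intermediate or higher on the right.

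The gap between the groups did not extend evenly to its neighbours. On the unmethylated side the group means of the 12 plus-strand cytosines at 57484731 to 57484851 were 7.21% ± 2.60 in Tough and 6.97% ± 1.95 in Tender. On the other side, the nearest covered cytosine, 57485591, had 59.2% ± 18.1 in Tough and 78.9% ± 15.3 in Tender (pooled difference 22.2 points, adjusted p of 0.569). The whole block of 13 minus-strand cytosines that it begins, 57485591 to 57485720, had 49.1% ± 6.96 and 51.0% ± 9.45. The 8 plus-strand cytosines at 57486082 to 57486151 had 36.6% ± 12.01 in Tough and 53.6% ± 9.98 in Tender, and the 6 minus-strand cytosines of nearly the same interval, 57486087 to 57486121, had 44.9% ± 22.7 and 46.2% ± 18.5. These blocks cover nearly the same bases on opposite strands, and only the plus-strand block had a gap larger than the SD of each group.

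DMC24, the other called cytosine, lies at 57570385 on the plus strand, a position the study annotated as intergenic. Covered cytosines around it had mixed levels. The nearest, 57570500, had a mean of 32.4%, and the 6 cytosines at 57567058 to 57567086 had a mean of 1.93%. At DMC24 the Tough animals had 70, 90.9, 88.2, 45.5, 60 and 50% (67.4% ± 19.1, n = 6). The Tender animals had 90.5, 100, 88.9, 88.2, 100 and 92.3% (93.3% ± 5.36, n = 6). The Tender animals were all above 85%, while the Tough animals were split, with 2 in the range of the Tender animals and 4 at 70% or below. Coverage was 12 to 47 reads, and the exact 95% interval was 21.1 to 78.9% for Tough 6 (6 of 12 reads) and 92.5 to 100% for Tender 11 (47 of 47 reads).

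For DMC24 the pooled difference was 28.3 points and the adjusted p 0.0421. It was the only covered cytosine of its 100 bp window, DMR21, whose adjusted p was 0.0275. The cytosine was no longer called (adjusted p of 0.0519 to 0.139, 23.8 to 29.02 points) in the 9 fits that left out Tough 1, Tough 4, Tough 5, Tough 6, Tender 7, Tender 8, Tender 9, Tender 11 or Tender 12. The window was lost without 6 of these, the exceptions being Tough 1, Tender 7 and Tender 9. The call also ended with the F-test, at an adjusted p of 0.554, and with the reads before scaling, at 0.0916. With conversion as a covariate in the chi-square model the call was kept, at an adjusted p of 0.0454 and the same unadjusted pooled difference. The difference of means was 22.1 points in the animals of lower conversion and 33.0 in those of higher conversion. The nearest covered cytosine, 57570500 on the minus strand, had 37.5% ± 18.4 in Tough and 27.3% ± 12.6 in Tender, so it lay the other way. The cytosine opposite DMC24 was not covered.

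Just outside the criteria were 2 cytosines with an adjusted p under 0.05 and a smaller difference. At 57604327 (plus strand) the pooled difference was -19.2 points, with an adjusted p of 0.0296, and values of 81.2 to 100% in Tough and 60 to 76.7% in Tender. At 57571159 (plus strand) it was 11.2 points, with an adjusted p of 0.0404 and values of 78.1 to 90.9% in Tough and 95.7 to 100% in Tender. No cytosine of the locus had an adjusted p under 0.05 with the F-test, with the reads before scaling or without Tender 12. These were also the only 2 of the 431 cytosines at which the groups did not overlap, against 0.0965% of all cytosines. The cytosine 57484974 beside DMC23 was outside the other criterion, with 30.8 points and an adjusted p of 0.141.

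Most of the locus did not differ by much. The absolute pooled difference was under 10 points at 86.5% of its cytosines, against 94.0% of all cytosines. An unadjusted p under 0.05 was found at 44 cytosines (10.2%), against 8.29% of all cytosines. After DMC23, 57484974 and DMC24, the largest differences were those of 57530734 and 57530744, 10 bp apart on the minus strand in the fourth domain. At 57530734 the Tough animals had 7.69, 7.14, 27.3, 26.7, 7.41 and 0% and the Tender animals 42.9, 64.9, 30, 16.1, 51.2 and 16.7%. The groups overlapped, with a pooled difference of 26.8 points and an adjusted p of 0.361.

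**Figure D3:**
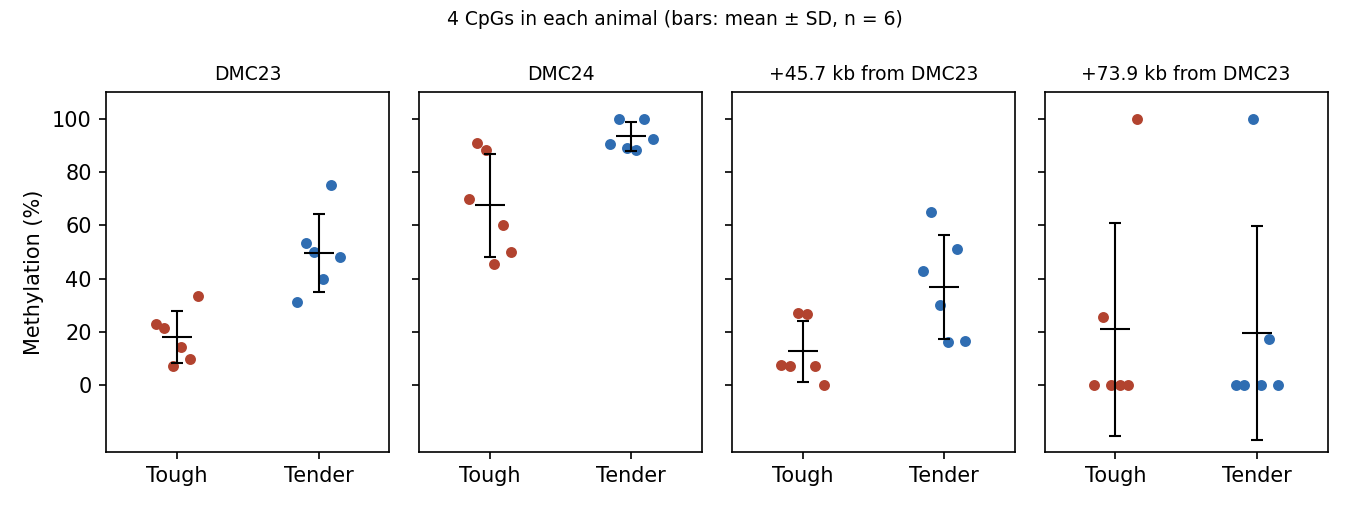
Methylation (%) in every animal at DMC23, DMC24, the cytosine 57530734 and the cytosine 57558924, which are titled by their distance from DMC23 where they have no name, with bars at the mean ± SD of 6 animals. The groups overlap by 1 pair of animals at DMC23, 2 Tough animals reach the Tender range at DMC24, and at 57558924 1 animal of each group stands at 100%.

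The 5 cytosines that varied most over the animals were other ones than the 5 with the largest pooled difference. At 57558924 (plus strand) Tough 6 and Tender 9 had 100%, Tough 2 had 25.7%, Tender 11 had 17.4% and the other 8 animals had 0% (SD 38.2). The cytosine 57558946, 22 bp further, had 96.2% ± 4.70. At 57389323 (minus strand) the values ran from 13.6% in Tough 6 to 100% in Tough 5 (SD 24.4), and at 57508772 (plus strand) from 0% in Tough 2 to 71.4% in Tough 1 (SD 23.0). The other 2 of the 5 most variable cytosines lay in stretches, 57485784 (plus strand, SD 22.6, 0 to 60%) and 57531390 (minus strand, SD 22.2, 0 to 73.9%). At 57531390 the difference was turned, with 49.3% ± 20.1 in Tough and 20.7% ± 13.8 in Tender, a pooled difference of -23.9 points and an adjusted p of 0.465. Its difference of group means, -28.6 points, was larger in size than that of DMC24.

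The spread at intermediate cytosines was close to that of such cytosines elsewhere. The median SD over 12 animals was 15.05% at the 121 intermediate cytosines of the locus (quartiles 12.1 and 17.1) and 15.13% at the 48941 on all autosomes (quartiles 12.3 and 18.3). Counting error alone gave a median SD of 9.78% in the locus and 9.68% over all. The median overdispersion factor, the variance within groups over its binomial value, was 2.56 in the locus and 2.62 over all.

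Stretches 2, 6 and 8 each lie within a single block, and each stretch is shorter than a read. With all cytosines of such a stretch counted as 1 draw of its reads, counting error gave an SD of 11.1% for stretch 2, against 13.7% observed. It gave 11.4% for stretch 6, against 13.3% observed, and 11.1% for stretch 8, against 18.9% observed. With each block of the other stretches counted likewise, it gave 5.90% for stretch 3 (8.81% observed) and 7.63% for stretch 4 (11.6% observed). For stretches 1, 5 and 7 it gave 5.54, 7.16 and 6.48%, against 7.01, 7.26 and 7.97% observed. Some blocks of stretches 1, 5 and 7 are longer than a read, so these figures can overstate counting error. PCR copies could not be told from separate molecules in these reads, and their part in the spread was not tested. Over all stretches of the genome the median SD of a stretch was 9.05%, and over the 8 of the locus it was 10.2%.

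Within a stretch, cytosines that can share reads varied together over the animals. The median Pearson's r over 12 animals was 0.88 for 222 pairs of cytosines of the same strand less than 50 bp apart, 0.06 for 231 pairs of the same strand farther apart and -0.01 for 433 pairs on opposite strands. The first kind of pair can rest on the same reads, and all pairs share animals and libraries, so these values are a description.

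The strands could be compared at 58 CpGs covered on both, 23 of them in stretches. Their mean levels were close, with a median absolute difference of 4.22 points in the stretches and a largest one of 11.03. The animals were not ordered alike on both strands. The median r over animals at these 23 CpGs was 0.19, from -0.26 to 0.65. Each strand is read by its own reads, so counting error alone can lower r. At the cytosines of the stretches it gave a median SD of 9.78%, against 15.1% observed. In stretch 1 the plus strand had 41.5% ± 10.99 and the minus strand 46.1% ± 7.96, with r = 0.01 over the 12 animals. For Tough 2 the plus strand gave 16.5% and the minus strand 55.4%.

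Whether the animals' levels moved together between stretches was tested over the 12 animals, a relation that the choice of the locus did not use. Pearson's r of the 28 pairs of stretches ran from -0.58 to 0.66, with a median of -0.02, and 14 were positive. After Benjamini-Hochberg adjustment over the 28 pairs none had a p under 0.05, by Pearson's r (permutation test with 100000 resamples, two-sided, lowest adjusted p = 0.545) or by Spearman's rho. Before adjustment 1 pair was under 0.05 by r and 2 by rho. Counting error is part of the spread of every stretch and can weaken r, so a relation between stretches could be missed.

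The pair with the highest r was stretches 7 and 8, neighbours 559 bp apart (r = 0.66, permutation p = 0.0217, and rho = 0.65, permutation p = 0.0255, adjusted p = 0.545 and 0.637). Without the 2 animals farthest from the median of stretch 7 r was 0.73 (permutation p = 0.0191), with the group means removed it was 0.74, and in the 7 animals of lower conversion it was 0.54 (permutation p = 0.218). No r was computed over the 5 animals of higher conversion, since at least 6 were required. The lowest r was that of stretches 4 and 7 (r = -0.58, permutation p = 0.0519, rho = -0.59, permutation p = 0.0455, adjusted p = 0.545 and 0.637). It was -0.59 with the group means removed, -0.58 in the 7 animals of lower conversion and -0.29 without the 2 animals farthest from the median of stretch 4 (permutation p = 0.418).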

How the data were processed

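Libraries were made by the submitters with an MspI RRBS kit with spike-in controls for bisulfite conversion, and single-end 50-base reads were trimmed with Trim Galore 0.4.1, aligned to ARS-UCD1.2 (bosTau9) with Bismark 0.23.0 and counted with methylKit 1.8.1, per the labels and the study's methods (at least 10 reads, none above the 99.9th percentile, coverage scaled between animals, strands kept apart, cytosines covered in all 12 animals). The values deposited by the authors are a score rather than raw counts, since the authors scaled the methylated and unmethylated reads per animal and rounded them. The main model nevertheless took these scaled values as if they were read counts. The reads before scaling were fitted as an alternative. The factor per animal (1 to 1.27) was found from the coverages and returned all 7625628 values. Totals before scaling were 14521826 (Tough 6) to 23470740 (Tough 1) reads over all cytosines.

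The model was fitted in Python 3.11.15 (numpy 2.4.6, scipy 1.17.1) to all 635469 cytosines and to 100 bp windows, as methylKit does, and was tested on simulated data. It called 121 cytosines and 42 windows. Coordinates are those of the deposited table. The members, rules and lists were chosen with earlier results of these data known. Besides the called sites, the 5 cytosines with the largest differences and the 5 with the largest SDs were named. No annotation or sequence of this build was used here, so stretches were not assigned to start sites. RefSeq's gene table of another cattle assembly, read for names only, held all 10 neighbour names looked up, among them STX16, NPEPL1 and CTSZ. It held none of the 4 names of the imprinted cluster, GNAS among them. The study reports RefSeq isoforms of bovine GNAS, so this failed match by name does not mean that the gene is missing in cattle. Animals were split by spike-in conversion into 5 of higher and 7 of lower rate.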

Additional observations from a re-analysis of the deposited data

Results flagged for a closer look

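The cytosine 57558924 (plus strand) held a single animal far from the rest in each group. In the Tough group Tough 6 had 100% and the other 5 animals 0 to 25.7%. In the Tender group Tender 9 had 100% and the other 5 animals 0 to 17.4%. In each case the gap to the nearest animal was larger than Dixon's 95% limit for 6 samples. This cytosine was named for the largest SD over the animals of the locus, so the comparison with that limit is a description and no test. Of the 40 groups looked at 2 stood out, and chance marks about 1 in 20 groups that were not chosen for their spread. The cause was not tested.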

How the results depend on the processing

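The calls at the locus depended on the model. With an F-test in place of the chi-square test where the overdispersion factor exceeded 1, as methylKit offers, 9 cytosines and 3 windows were called over the series and 0 and 0 in the locus, where 38 cytosines had an unadjusted p under 0.05 (44 by the chi-square test). The adjusted p was then 0.487 for DMC23 (31.8 points), 0.554 for DMC24 (28.3), 0.471 for DMR20 (25.6) and 0.533 for DMR21 (28.3). Without the overdispersion factor 1431 cytosines and 266 windows were called, 5 of the cytosines in the locus. With conversion as a covariate in the chi-square model 118 cytosines and 42 windows were called, 2 of each in the locus. Only the p was adjusted for conversion there, and the pooled differences of the criterion were not. The adjusted p was then 0.00102 for DMC23, 0.0454 for DMC24, 0.000186 for DMR20 and 0.0262 for DMR21. With reads before scaling the locus kept 0 cytosines (44 at an unadjusted p under 0.05) and 1 window, DMR20, with adjusted p of 0.0532 for DMC23 (31.8 points), 0.0916 for DMC24 (26.5) and 0.0576 for DMR21 (26.5). With at least 20 scaled reads, which leaves out DMC23 and DMC24, 24 cytosines and 11 windows were called, 0 and 0 in the locus, where 8 of the 89 remaining cytosines had an unadjusted p under 0.05. Leaving out each animal in turn gave 128 to 196 cytosines and 41 to 81 windows over the series (the highest counts without Tough 1), and 0 to 2 of each in the locus. DMC23 was then called in 5 of 12 fits (26.1 to 35.2 points), DMC24 in 3 (23.8 to 33.3), DMR20 in 8 (20.9 to 28.8) and DMR21 in 6 (23.8 to 33.3). The number of stretches was 4 with a band of 40 to 60%, 4 when joined over 1000 bp, 1 with at least 20 scaled reads and 6 to 9 with an animal left out. The Tender minus Tough difference of each stretch moved by less than 1 SD over animals under the alternatives run on all or all but 1 animal, but by more in the 5 animals of higher conversion for stretch 3 (16.8 points) and stretch 6 (-13.2). No pair of stretches passed the adjusted threshold in any alternative. The labels give no pairing of Tough with Tender animals, so no paired analysis was made. At a median of 24 reads, a difference of 10 points at a single cytosine and animal lies within counting error.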

Other observations

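At a few CpGs outside the stretches the strands gave different means. At the CpG whose plus-strand cytosine is 57366811 the plus strand had 80.5% ± 8.62 and the minus strand 25.5% ± 13.6 over the 12 animals. At the CpG of 57366861 the order was turned, the plus strand at 19.97% ± 13.2 and the minus strand at 95.3% ± 6.23. The low cytosine of each of these CpGs lies at an end of its read block, where coverage changed. In Tough 1 it was 28 reads at 57366812 and 18 at 57366834 (minus strand), and 42 at 57366861 and 33 at 57366842 (plus strand). These values thus rest in part on other reads than the rest of their blocks, and the cause of the differences was not tested. At the CpG of 57486688, next to stretch 2, the plus strand had 97.2% ± 5.44 and the minus strand 73.9% ± 8.82. The median absolute difference between strands over the 58 CpGs was 1.82 points.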
